A study of Mus musculus with 3 samples.

Results

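Igfbp4 and Igf2r are 2 genes of the insulin-like growth factor (IGF) axis, out of 14355 genes measured in single naive CD4 T cells. They were picked from the IGF axis because their transcripts had been seen to be more abundant in cells with more surface CD5 in these same data. The study asked how individual naive CD4 T cells differ along the range of self-reactivity, with CD5 as the stand-in for the strength of tonic T cell receptor signals. Freshly sorted, untreated cells came from the spleen and lymph nodes of C57BL/6 mice aged 8 to 12 weeks, male and female animals pooled. Sorted cells were live singlets that stained for CD4, TCRb, CD5 and CD62L, without CD44, CD25 or CD8, and each cell's CD5 fluorescence was recorded. Cells lie in 3 plates of 384 wells, with 172, 201 and 324 cells in plates 1, 2 and 3, or 697 in all. The authors' CD5 classes hold 174 cells called Low (fluorescence up to 26610), 349 called Middle and 174 called High (69889 and above). Each plate holds all 3 classes. The labels do not tie the plates to separate animals, so any p-value speaks for these plates only. Differences between the plates may be technical.

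IGF-binding protein 4, the product of Igfbp4, is a secreted protein that binds IGF1 and IGF2 and keeps them from the IGF1 receptor until a protease, pappalysin (gene Pappa), cuts it. The product of Igf2r is the cation-independent mannose 6-phosphate receptor, which carries newly made lysosomal enzymes from the Golgi to endosomes and, at the cell surface, takes up IGF2 for destruction. Igf2r does not pass on an IGF signal as the IGF1 receptor does, and in mice its maternal copy is the active one while the antisense RNA Airn is read from the paternal copy. In naive CD4 T cells Igfbp4 is commonly found among the transcripts of the resting state.

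The gene table gave 3240917 unique molecular identifiers (UMIs, each standing for about 1 captured transcript), with a median of 3746, 5444 and 3949 UMIs per cell in plates 1, 2 and 3. Of 6 T cell marker genes at least 1 was found in 99.6% of cells, and Cd4 was found in 95.7%. Markers of other cells ranged from rare to common, and markers of the same cell type differed widely. Cd79a was in 1.15% of cells, Cd8a in 1.004% and Cd8b1 in 4.16%. For NK cells Klrd1 was in 9.04%, but Gzma in 0.43% and Klrk1 in 0%. For myeloid cells Ctss was in 40.2% and Cst3 in 19.9%, but Itgam in 2.01%. For endothelial cells Pecam1 was in 31.3%, but Cdh5 in 0.287% and Lyve1 in 0.43%. For memory or activated T cells Lgals1 was in 15.8%, Cd44 in 9.47% and Itgb1 in 5.16%, but Cxcr3 in 0.287% and Ccl5 in 0%. At least 1 of the 7 genes listed for those cells was in 27.0%, although cells were sorted without surface CD44. No share of other cells is read from any 1 of these genes. Foxp3, the marker of regulatory T cells, was found in 8.03% of cells even though CD25-positive cells were gated out. The plates were unequal in this: among cells thinned to equal depth, as described below, 0, 6 and 24 held Foxp3 in plates 1, 2 and 3. The Cd5 transcript followed CD5 fluorescence in plates 1 and 3 (Spearman rho 0.38 over 172 cells and 0.26 over 324 cells), but hardly in plate 2 (0.05 over 201 cells). In plate 2 the Cd5 transcript followed the CD5 fluorescence recorded for the following well number instead (rho 0.32 over 170 cells). The members' values over CD5 are therefore given for each plate, and their fits, the gene lists and the neighbouring genes also without plate 2. Whether CD5 values and wells are displaced in plate 2 was not tested.

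The 250 bases before the transcription start of each gene are shown as the promoter sequence just upstream of each member. Igfbp4 lies on chromosome 11 from 99041244 to 99054392 on the plus strand (GRCm38, which is mm10), and its main transcript has 4 exons. Igf2r lies on chromosome 17 from 12682406 to 12769664 on the minus strand, and its main transcript has 48 exons. These limits are GENCODE's. RefSeq's start of Igf2r, from which the bases are counted here, is 12769706, upstream of GENCODE's, and its start of Igfbp4 is the same, 99041244. The sequences are from RefSeq on GRCm38.p6, printed 5′ to 3′ on the gene's own strand, from chr11:99040994-99041243 and chr17:12769707-12769956. Capitals mark matches to the motifs searched, on either strand, which were TCACGTGA, the core of the CLEAR element of lysosomal genes, TATAAA, the TATA box core, GTAAACA, a forkhead core, and GGAAAA, an NFAT core.
Igfbp4: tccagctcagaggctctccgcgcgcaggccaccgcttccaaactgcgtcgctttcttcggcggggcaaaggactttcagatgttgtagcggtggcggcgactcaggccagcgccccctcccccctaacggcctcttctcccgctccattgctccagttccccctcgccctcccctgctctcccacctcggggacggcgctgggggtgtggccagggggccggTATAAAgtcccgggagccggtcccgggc
Igf2r: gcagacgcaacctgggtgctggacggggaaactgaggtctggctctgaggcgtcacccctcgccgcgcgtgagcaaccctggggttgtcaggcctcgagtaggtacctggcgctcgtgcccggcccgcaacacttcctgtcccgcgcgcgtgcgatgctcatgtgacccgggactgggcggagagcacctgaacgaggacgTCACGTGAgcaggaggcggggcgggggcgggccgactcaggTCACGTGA

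Both stretches were rich in G and C, at 69.2% in each. The median was 52.4% over 32851 promoters of the same length, a set that leaves out a chromosome. The Igfbp4 stretch held TATAAA starting 28 bases before the start, a motif found in 12.4% of promoters. The Igf2r stretch held TCACGTGA at 49 bases and again at 8 bases before the start. That motif was present in 0.785% of the promoters in this set. Of the 30 lysosomal genes listed for this work, 24 had a promoter in the set, and 3 of those held it. GTAAACA and GGAAAA were in neither stretch, against 3.17% and 20.4% of promoters.

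Igfbp4 was an abundant transcript. It gave 2339 UMIs, which placed it at rank 161 of 14355 genes by UMIs (3′-end counts, so not divided by transcript length). It was found in 490 of 697 cells, or 70.3% (95% exact Clopper-Pearson interval 66.8 to 73.7; this and the other intervals cover counting error only). Detection was 68.0%, 62.2% and 76.5% of cells in plates 1, 2 and 3. The level was uneven between cells: 207 cells had no UMI, 132 had 1, and 63 had 10 or more, up to 28 in a Middle cell of plate 3. The 70 cells with the most Igfbp4 held 43.2% of its UMIs.

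Igf2r was scarce, with 210 UMIs at rank 2223. It was found in 126 cells, or 18.1% (15.3 to 21.1), and in 12.2%, 20.9% and 19.4% of cells in plates 1, 2 and 3. Of the positive cells, 86 had 1 UMI, 36 had 2 to 4, 3 had 5 to 9, and 1 had 12. That last cell was a High cell of plate 1 with 13155 UMIs in all, and it also held the most Igfbp4 UMIs of its plate, 21. Detection depends on depth: over the cells of a plate, Igfbp4 UMIs followed the cell's total with rho 0.46 to 0.51, and Igf2r UMIs with rho 0.097 to 0.20. To hold depth fixed, 557 cells with at least 2118 UMIs were thinned at random to that number, the 20% quantile of totals. In thinned cells Igfbp4 was found in 59.6% and Igf2r in 9.52%.

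Igfbp4 varied more between thinned cells than most genes of its level, while Igf2r lay nearer the middle of its like. The variance of Igfbp4 was 2.55, 2.52 and 2.09 times its mean in plates 1, 2 and 3, against medians of 1.61, 1.78 and 1.54 over the 104, 129 and 125 genes of like mean. Among those genes 7, 13 and 12 had a higher ratio. For Igf2r the ratio was 1.29, 1.46 and 1.51, against medians of 1.33, 1.43 and 1.37 over 2266, 2060 and 1895 genes, of which 1194, 957 and 613 had a higher ratio.

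Across the CD5 classes, Igfbp4 was higher in both the Middle and the High class than in the Low class of each plate, and Igf2r was highest in the High class of each plate. Both genes were picked on this contrast, so their values are a description with no test, and that the High class lies above the Low class is no sign of stability. In plate 1 the summed Igfbp4 level was 696, 775 and 855 CPM (the gene's UMIs per 1000000 UMIs of the class) in the Low, Middle and High class. In plate 2 it was 507, 703 and 662 CPM, and in plate 3 it was 524, 726 and 1100 CPM. The High class was above the Low class of its own plate in 3 of 3 plates, and plate 3 showed the largest gap. Between plates the groups overlapped, since High cells of plate 2 stood below Low cells of plate 1. Igfbp4 averaged 872 ± 220 CPM in High cells and 576 ± 105 CPM in Low cells (SD, n = 3 plates).

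In the fit across all genes (edgeR, quasi-likelihood, with plate as a block), the log2 difference of Igfbp4 was 0.61 (SE 0.15) for High minus Low, a 1.53-fold difference. It was 0.38 (SE 0.14) for Middle minus Low and 0.23 (SE 0.14) for High minus Middle. Single plates gave 0.16, 0.47 and 0.47 for the first step and 0.14, -0.09 and 0.60 for the second. In the class fit, edgeR called 9 of 4813 genes (0.187%) between the High and the Low class at an adjusted p of 0.05, with 297 genes at an unadjusted p under 0.05, and neither Igfbp4 nor Igf2r was among the 9. Without plate 2 it called 20 of 5113 genes (0.391%), both members included, whereas leaving out plate 1 gave 0 calls (293 genes at an unadjusted p under 0.05), as did leaving out plate 3 (282 genes). The median log2 difference over all tested genes was 0.00. This is the background of a contrast that chose the members, and nothing is read from it about them. Single plates gave log2 ratios of 0.30, 0.38 and 1.07 for High over Low. Without plate 3 the fitted value was 0.32 (SE 0.20), and without plate 2 it was 0.74 (SE 0.16).

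**Figure D1:**
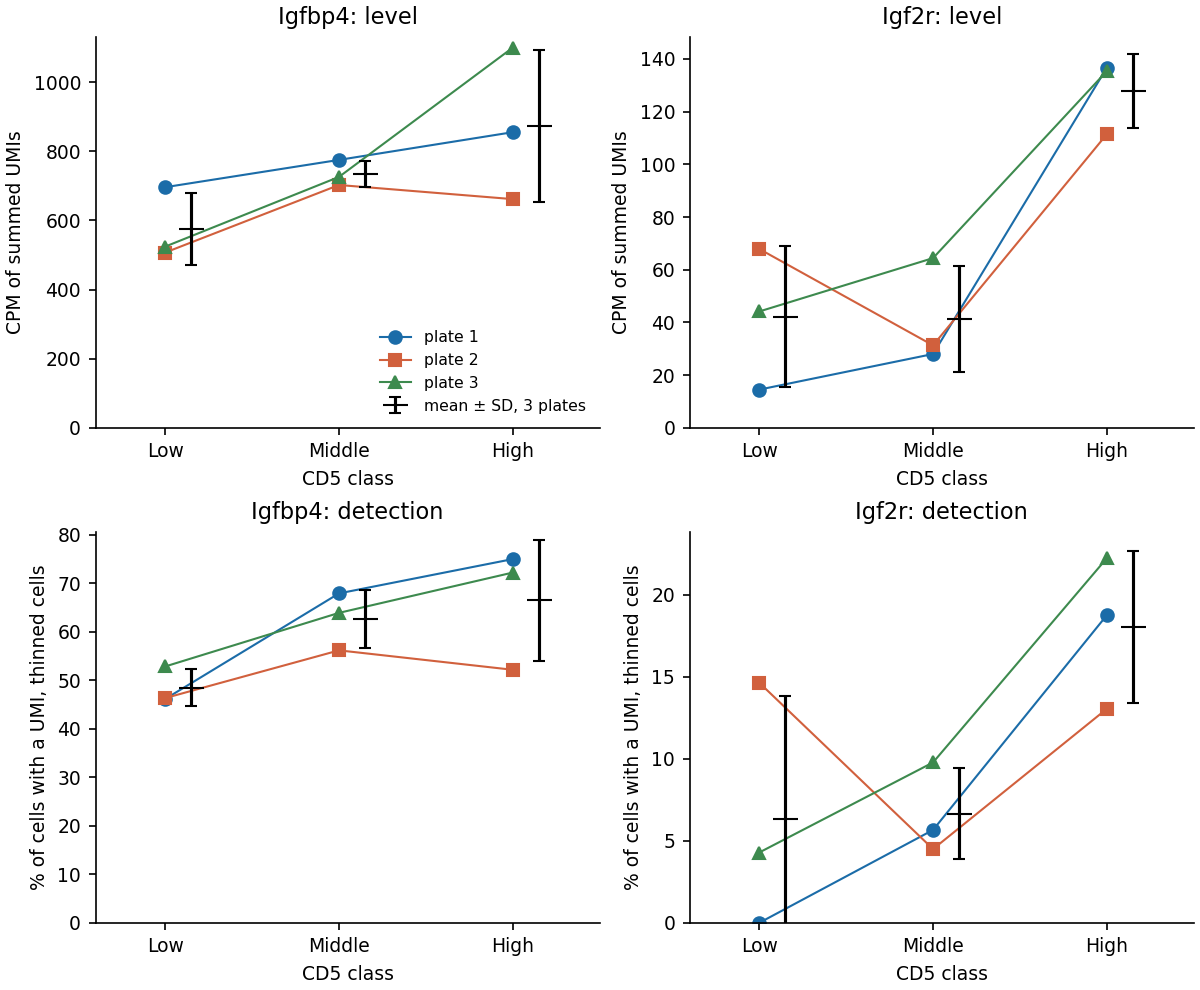
Level (CPM of summed UMIs, top) and detection (% of thinned cells with a UMI, bottom) of Igfbp4 and Igf2r by CD5 class, with 1 marker shape per plate and black bars for the mean ± SD of 3 plates (bars are drawn down to 0). Igf2r, picked for being higher with more CD5, lies between 111 and 137 CPM in the High class. It lies between 14.5 and 67.9 CPM in the Low and Middle classes.

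Over all UMIs, the share of cells with Igfbp4 and the UMIs per positive cell also follow depth, which differed between classes. In plate 1 more High cells than Low cells held the transcript, 77.6% (63.4 to 88.2) against 52.1% (37.2 to 66.7), while positive cells held 4.45 UMIs in the High class against 5.76 in the Low class. In plate 3 the share was nearly the same, 77.1% in High and 77.5% in Low cells, but positive cells held 6.02 UMIs against 3.06. In plate 2 neither measure differed as much, with 61.8% in High and 60.9% in Low cells, and 5.59 against 4.54 UMIs per positive cell. Cells with 5 or more Igfbp4 UMIs made up 29.3% (22.7 to 36.7) of High cells, against 19.0% (13.4 to 25.6) of Low cells over all plates. After thinning, detection was 75.0%, 52.2% and 72.2% in High cells of plates 1, 2 and 3, against 46.2%, 46.3% and 52.9% in Low cells. High cells were above Low cells of their plate in 3 of 3 plates at equal depth. The mean was 66.5 ± 12.5% in High cells and 48.5 ± 3.82% in Low cells (SD, n = 3 plates). Before thinning, the median was 2525, 5396 and 3685.5 UMIs in High cells of plates 1, 2 and 3, against 4197.5, 4982 and 4599.5 in Low cells.

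For Igf2r, plate 1 had 14.5, 28.0 and 137 CPM in the Low, Middle and High class, from 3, 9 and 27 UMIs. Plate 2 had 67.9, 31.3 and 111 CPM (17, 18 and 32 UMIs), and plate 3 had 44.2, 64.4 and 135 CPM (16, 48 and 40 UMIs). Igf2r was picked for being higher with more CD5, so the High class standing highest in each plate is no separate result. Low and Middle overlapped and changed order between plates. Igf2r averaged 128 ± 14.2 CPM in High cells and 42.2 ± 26.7 CPM in Low cells, and 41.2 ± 20.1 CPM in Middle cells (SD, n = 3 plates). The fitted log2 difference was 1.61 (SE 0.42) for High minus Low, a 3.04-fold difference, -0.02 (SE 0.43) for Middle minus Low and 1.63 (SE 0.38) for High minus Middle.

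The size of the Igf2r difference was poorly fixed by these counts. The High over Low ratio was 9.42 in plate 1 (exact 95% counting interval 2.90 to 48.5, on 3 Low UMIs), 1.64 in plate 2 (0.885 to 3.15) and 3.07 in plate 3 (1.68 to 5.87). In plate 1 the 1 cell with 12 UMIs held 44.4% of the High UMIs, and without it the High class had 81.3 CPM. Leaving out the top Igf2r cell of each plate gave a fitted log2 difference of 1.52 (SE 0.45). Leaving out plate 1 gave 1.16 (SE 0.44), and leaving out plate 2, whose Low cells were the highest, gave 2.21 (SE 0.51).

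Detection of Igf2r was higher in High than in Low cells in plates 1 and 3 but not in plate 2, with 20.4%, 25.5% and 32.9% of High cells against 6.25%, 26.1% and 12.5% of Low cells. Over all plates a UMI was found in 27.0% of High cells (20.6 to 34.2), against 14.4% of Low cells (9.52 to 20.5), while Middle cells had 15.5% (11.8 to 19.7). Positive cells also held more, 2.11 UMIs in the High class against 1.44 in the Low class. Cells with at least 2 UMIs made up 11.5% (7.16 to 17.2) of High cells and 3.45% (1.28 to 7.35) of Low cells. In thinned cells, 18.8%, 13.04% and 22.2% of High cells were positive in plates 1, 2 and 3, against 0%, 14.6% and 4.29% of Low cells. The 0 in plate 1 is 0 of 39 cells, which allows a share of up to about 7.69%. That limit is 3 counts over 39 cells, an approximation and not an exact interval like the others. High cells were above Low cells in plates 1 and 3, and plate 2 showed no higher detection in High cells at equal depth.

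**Figure D2:**
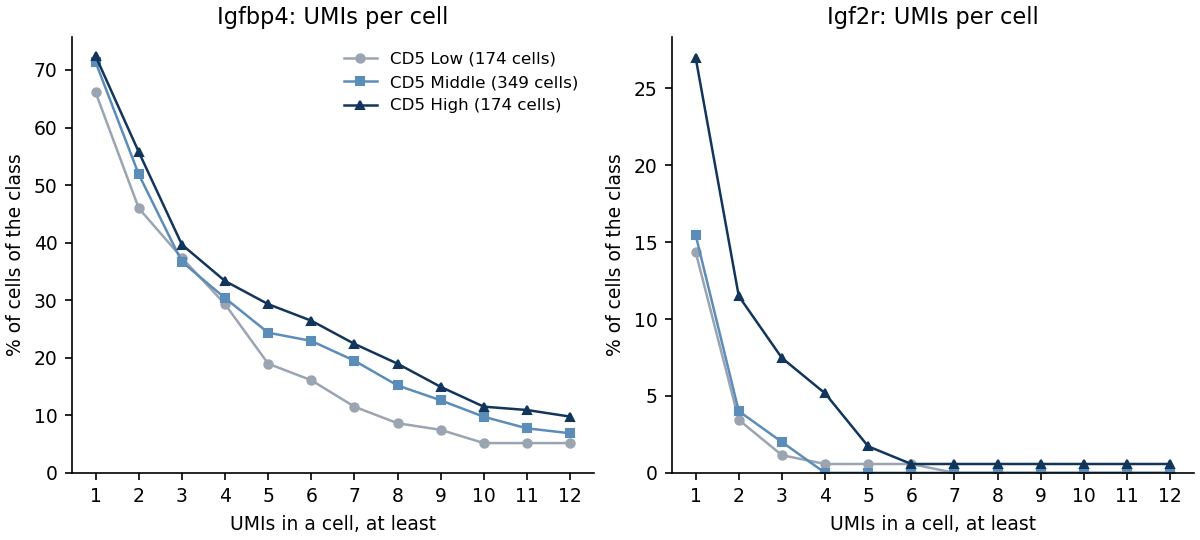
Share of cells (y axis, %) that hold at least the number of UMIs on the x axis, for Igfbp4 and Igf2r, with 1 line per CD5 class over all plates. The Igf2r line of the High class starts at 27.0% and the Low and Middle lines at 14.4% and 15.5%, while the Igfbp4 lines separate most between 5 and 8 UMIs.

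Over the 4 CD5 bins, from lowest to highest, Igf2r had 10.6, 23.1, 38.8 and 141 CPM in plate 1. In plate 2 it had 72.2, 29.7, 34.3 and 109 CPM, and in plate 3 it had 46.0, 76.0, 48.5 and 129 CPM. The top bin was the highest in 3 of 3 plates, and below it each next bin was higher in plate 1, whereas plates 2 and 3 had no steady order. Igfbp4 had 718, 693, 793 and 891 CPM in plate 1, 553, 841, 565 and 613 CPM in plate 2, and 546, 774, 701 and 1008 CPM in plate 3. Its lowest bin was the lowest in plates 2 and 3 but not in plate 1. The fit on CD5 fluorescence, with each plate cut into 4 bins of equal size, called 6 of 5019 genes (0.12%), without either gene. Without plate 2 it called 14 of 5016 (0.279%), 1 member included, whereas leaving out plate 1 gave 0 calls (263 genes at an unadjusted p under 0.05), as did leaving out plate 3 (212 genes). Nothing is read from these counts about the members. The fitted log2 slope per doubling of CD5 was 0.54 (SE 0.17) for Igf2r and 0.16 (SE 0.060) for Igfbp4. Slopes within plates 1, 2 and 3 were 1.36, 0.07 and 0.44 for Igf2r, and 0.12, 0.03 and 0.30 for Igfbp4. Without plate 2 the fitted slopes were 0.82 (SE 0.20) for Igf2r and 0.23 (SE 0.067) for Igfbp4. Without plate 1 that of Igf2r was 0.31 (SE 0.18), and without plate 3 that of Igfbp4 was 0.067 (SE 0.078).

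**Figure D3:**
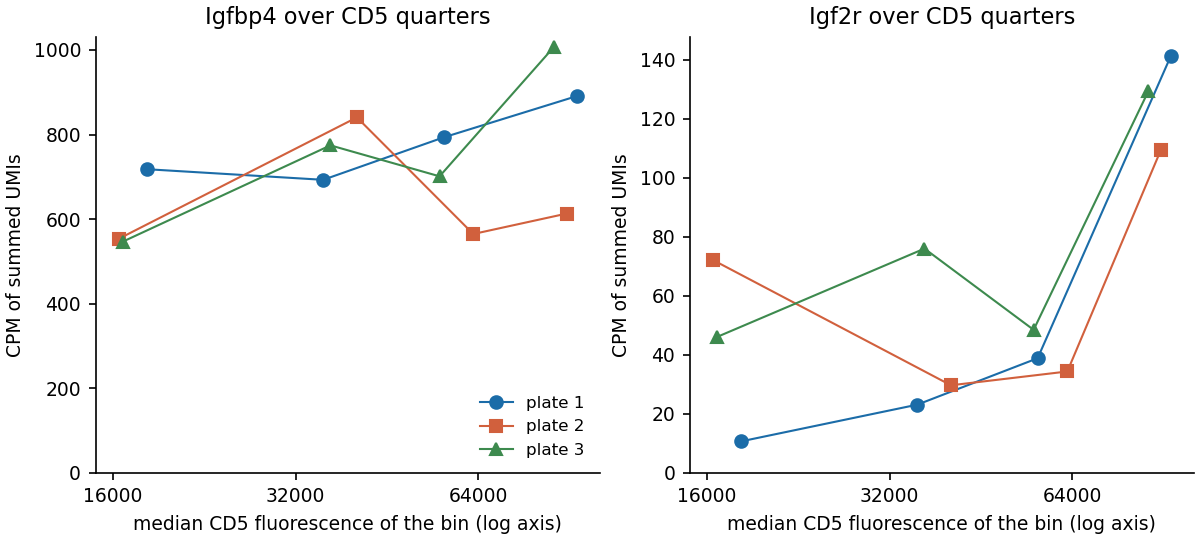
Igfbp4 and Igf2r level (CPM of summed UMIs) against the median CD5 fluorescence of 4 equal bins of cells per plate (log axis), with 1 line per plate. Igf2r ends at 109 to 141 CPM in the top bin of the 3 plates, and plate 2 starts at 72.2 CPM in its lowest bin.

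From cell to cell the relation with CD5 was weak. In thinned cells Igf2r UMIs followed CD5 fluorescence with rho 0.22, -0.01 and 0.17 in plates 1, 2 and 3 (124, 176 and 257 cells), and Igfbp4 with 0.22, 0.02 and 0.18. Over all UMIs, without thinning, the rho with a cell's own CD5 fluorescence was 0.19, -0.01 and 0.13 for Igf2r in plates 1, 2 and 3. For Igfbp4 it was 0.14, -0.03 and 0.07. Also over all UMIs, but with the CD5 fluorescence of the following well, Igf2r had rho 0.25 over 170 cells of plate 2. It had -0.04 and -0.01 over 145 cells of plate 1 and 279 cells of plate 3. Igfbp4 had 0.14 in plate 2, and -0.22 and 0.03 in plates 1 and 3, with that displacement. When cells of plate 2 were given the CD5 value of the next well, a displacement picked with earlier results of these data known, High minus Low was 2.15 (SE 0.42) for Igf2r and 0.86 (SE 0.15) for Igfbp4 on the log2 scale.

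Other measures were also described by CD5 class. The summed level of 5 regulatory T cell genes was 101 to 174 CPM in the High classes of the 3 plates. It was 47.0 to 130 CPM in the Middle and 43.5 to 124 CPM in the Low classes, so the ranges overlapped. Foxp3 had 41.1 ± 36.1 CPM in High, 18.3 ± 18.8 CPM in Middle and 23.1 ± 21.1 CPM in Low cells (SD, n = 3 plates). Of the 5 genes 3 were tested between High and Low cells and 0 passed (Foxp3 edgeR adjusted p = 0.942), against 0.187% of all tested genes. Without the cells that held a Foxp3 UMI, High minus Low was 0.54 (SE 0.15) for Igfbp4 and 1.65 (SE 0.43) for Igf2r. A set of 7 transcripts picked from earlier results of these data and led by the noncoding RNA Kcnq1ot1 made up 2.74%, 1.26% and 2.31% of the UMIs of thinned High cells in plates 1, 2 and 3, against 1.47%, 1.05% and 1.69% of Low cells. Without the cell richest in that set, the log2 differences were 0.61 for Igfbp4 and 1.60 for Igf2r. Otherwise the part of that set in either result was not tested.

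Whether the 2 genes occur in the same cells was not used to choose them and could be tested. With p adjusted over all genes, no difference in Igfbp4 was detected between cells with an Igf2r UMI and cells without one. Over all UMIs, 90 cells held both transcripts, against 89.4 expected from their shares within each plate and class. In thinned cells 34 held both, against 33.3. Igfbp4 was found in 71.4%, 47.6% and 87.3% of Igf2r-positive cells in plates 1, 2 and 3, against 67.5%, 66.0% and 73.9% of Igf2r-negative cells. The plates thus pointed different ways, with odds ratios of 1.201, 0.468 and 2.42. Positive cells were deeper over all UMIs, with medians of 5306.5 and 3837 UMIs in positive and negative cells.

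In thinned cells, Igf2r-positive cells held 0.889, 1.19 and 2.07 Igfbp4 UMIs per cell in plates 1, 2 and 3, against 1.67, 1.33 and 1.38 in Igf2r-negative cells. Positive cells were lower in plates 1 and 2 and higher in plate 3, from 9, 16 and 28 positive cells. The fit over all genes, with plate and CD5 class held fixed, gave a log2 difference of -0.05 (SE 0.25, 95% interval -0.54 to 0.44, edgeR adjusted p = 0.996). It left out the Low cells of plate 1, which had no Igf2r-positive thinned cell, while the plate values above include them. The interval spans differences of either sign, so a difference within it was not detectable at this depth. Across the alternatives the adjusted p was 0.183 to 0.9998.

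Seen from the more abundant gene, cells above their plate's median of 1 thinned Igfbp4 UMI (Igfbp4-high, 45, 55 and 91 cells) were set against the rest (Igfbp4-low, 79, 121 and 166 cells). Igf2r gave 0.0444, 0.0909 and 0.198 UMIs per cell in Igfbp4-high cells of plates 1, 2 and 3, against 0.114, 0.132 and 0.114 in Igfbp4-low cells. Plate 3 again went against the other plates. The log2 difference was -0.16 (SE 0.52, interval -1.17 to 0.85, edgeR adjusted p = 0.999), and the adjusted p was 0.996 to 1 over the alternatives. With 69 thinned Igf2r UMIs in all, a difference within that interval was not detectable.

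**Figure D4:**
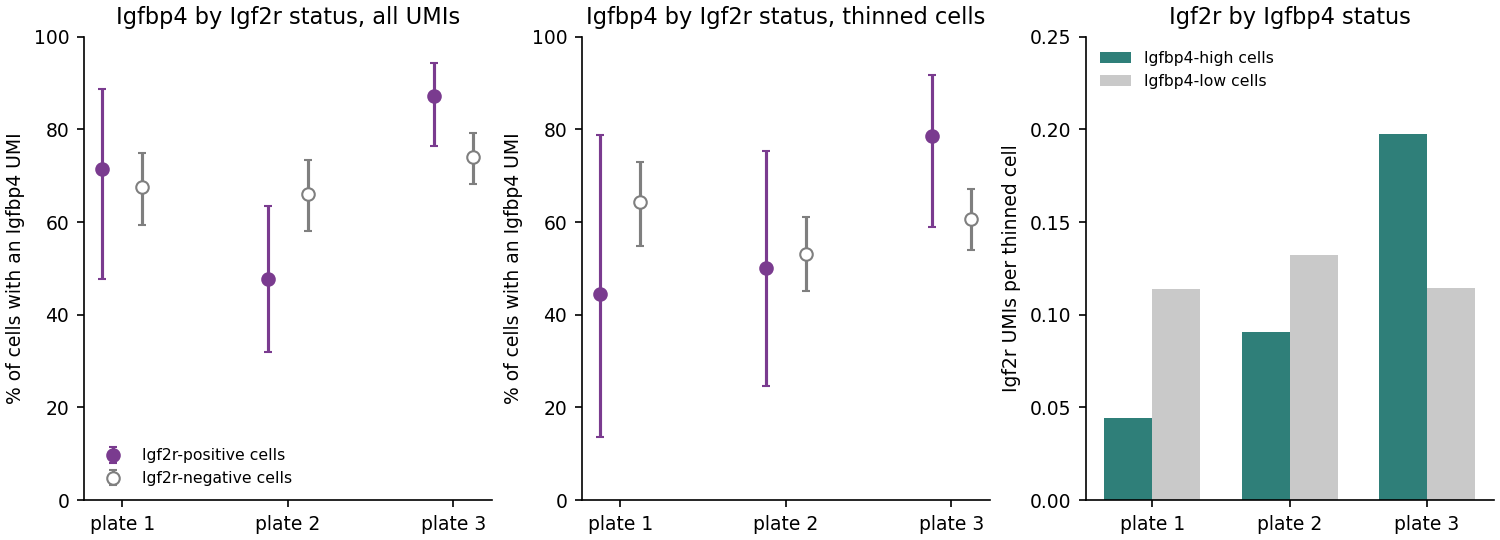
Share of Igf2r-positive (filled) and Igf2r-negative (open) cells with an Igfbp4 UMI per plate, over all UMIs (left) and in thinned cells (middle), with exact 95% intervals, and Igf2r UMIs per thinned cell in Igfbp4-high and Igfbp4-low cells (right). The order of the groups changes between plates, with Igf2r-positive cells at 47.6% against 66.0% in plate 2 and 87.3% against 73.9% in plate 3.

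No gene passed between Igf2r-positive and Igf2r-negative cells, 0 of 4863 genes tested (0%) in edgeR, with 222 at an unadjusted p under 0.05, and 0 with the DESeq2 Wald test, with 94 at that unadjusted p. The genes of smallest p, none of which passed (adjusted p = 0.711), were Slc38a2, an amino acid transporter, Tnfaip3, an inhibitor of NF-kB signalling, B4galnt1, a ganglioside synthase, Cnn3 and Taf2 on the higher side. Slc38a2 had 839, 561 and 523 CPM in Igf2r-positive cells of plates 1, 2 and 3, against 271, 322 and 400 CPM in Igf2r-negative cells (log2 1.04, SE 0.31). Tnfaip3 had 525, 354 and 287 CPM in Igf2r-positive cells, against 234, 106 and 109 CPM in Igf2r-negative cells (log2 1.36, SE 0.41). The lower side was led by Clcn4-2, at 27.3 ± 26.3 CPM in Igf2r-positive and 149 ± 64.6 CPM in Igf2r-negative cells (SD, n = 3 plates). Ppm1m, Vps16, Emc2 and Hibch followed, each at 0 UMIs in the 53 positive cells and 36 to 64 UMIs in the others, so that no fold is given. Cd5 transcripts were more numerous in Igf2r-positive cells, at 1.78, 0.875 and 0.714 UMIs per cell, against 0.452, 0.425 and 0.336 in Igf2r-negative cells, without passing (log2 1.02, SE 0.37, edgeR adjusted p = 0.711).

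Between Igfbp4-high and Igfbp4-low cells, 1 of 5088 genes (0.0197%) passed in edgeR, with 198 at an unadjusted p under 0.05. That gene was Smc4, a subunit of the condensin complexes that compact chromosomes. Smc4 had 399, 575 and 607 CPM in Igfbp4-high cells of plates 1, 2 and 3, against 753, 1003 and 740 CPM in Igfbp4-low cells. It was lower in Igfbp4-high cells of 3 of 3 plates and the groups did not overlap (log2 -0.68, SE 0.15, edgeR adjusted p = 0.0269). The call was lost with the DESeq2 Wald test (adjusted p = 0.998), with no block (0.518), and without plate 1 (0.305), plate 2 (0.995), plate 3 (0.0704) or the Foxp3-positive cells (0.0632). The log2 difference stayed between -0.82 and -0.60 in the 14 alternatives, with an adjusted p of 0.000109 to 0.998.

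Next on the lower side, without passing, came the ribosomal RNA precursor Rn45s (log2 -0.25, SE 0.061), Vmn2r55 (-0.47, SE 0.12), Kcnq1ot1 (-0.28, SE 0.076) and Bambi-ps1 (-2.28, SE 0.61). The Kcnq1ot1 set made up 1.78%, 1.09% and 1.82% of UMIs in Igfbp4-high cells of plates 1, 2 and 3, against 2.23%, 1.39% and 2.15% in Igfbp4-low cells. The part of that set in the Smc4 difference was not tested. On the higher side no gene passed. The smallest p belonged to Rnf126, Fam168b, Bcl2, Runx1 and Gpx1. Bcl2, which protects resting T cells from death, had 619, 687 and 353 CPM in Igfbp4-high cells and 436, 390 and 256 CPM in Igfbp4-low cells (log2 0.55, SE 0.18, edgeR adjusted p = 0.768). Gpx1, a glutathione peroxidase, had 245 ± 46.3 CPM in Igfbp4-high and 150.5 ± 54.8 CPM in Igfbp4-low cells (log2 0.78, SE 0.27, adjusted p = 0.999).

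Genes whose pattern over thinned cells was most like that of Igf2r were led by Cd5 itself. Its mean Spearman rho with Igf2r was 0.20 over the 3 plates (0.29, 0.15 and 0.15), the highest of 3150 genes. Npepl1 (0.18), Trim25 (0.17), Fam160b1 (0.16) and 4932438A13Rik (0.16) came next. Cells with a Cd5 UMI held 0.205, 0.193 and 0.265 Igf2r UMIs in plates 1, 2 and 3, against 0.025, 0.084 and 0.101 in cells without one. Igf2r was picked for being higher in cells with more CD5, so its likeness to Cd5 is a description and no separate support. Igf2r was found in 16.6% of thinned cells with a Cd5 UMI and 6.44% of those without. For Igfbp4 the most alike were Gpx1 (0.18), Rpsa (0.17), Bcl2 (0.17), Fam49b (0.17) and Mrps24 (0.15). Igfbp4 and Igf2r had a mean rho of 0.00 with each other (-0.12, -0.02 and 0.14). These values come from cells that share a library within a plate and are weak.

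Over the 12 sums of 3 plates and 4 CD5 bins, centred by plate, Igf2r was again most like Cd5, with Pearson r 0.79 among 639 genes. Stt3b (0.78), Naa60 (0.76), Ptprcap (0.74) and Rpl7 (0.74) followed. Igfbp4 was most like Ybx1 (0.83), Prkcq (0.79), Cd6 (0.74), Klhl6 (0.71) and Cdkn1b (0.70), and Cd5 stood at rank 19 for Igfbp4 (0.57). Prkcq is a kinase of T cell receptor signalling, and Cd6 is a surface receptor related to Cd5. Cell by cell the likeness to Cd6 did not show: cells with a Cd6 UMI held 1.07, 1.16 and 1.64 Igfbp4 UMIs in plates 1, 2 and 3, against 1.77, 1.39 and 1.41 in cells without one. The members had r 0.37 with each other, rank 115 for Igf2r. The sums share CD5 ranking and plate, and Cd5 and both members were chosen for following CD5.

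Igfbp4 was also described in cells split by other transcripts. In cells with a UMI of Ly6c1, a surface protein of naive cells with low CD5, Igfbp4 had 1.05, 0.792 and 1.15 UMIs per thinned cell in plates 1, 2 and 3, against 1.72, 1.40 and 1.51 in cells without. In cells with Folr4 (the table's older name of Izumo1r) it had 1.94, 1.61 and 1.65, against 1.5, 1.22 and 1.42. In cells with Ccr7, the homing receptor whose gene lies 89804 bases from Igfbp4, it had 1.63, 1.73 and 1.69, against 1.58, 0.855 and 1.23. Each of these differences had 1 direction in 3 of 3 plates, though the Ccr7 gap in plate 1 was small, and none was tested. The splits do not hold CD5 fixed, and Igfbp4 was picked for being higher with more CD5, so they are no separate support. Splits by Myc (48 cells with a UMI) and Airn (13 cells) also had 1 direction for Igfbp4. It was higher with Myc, by only 1.625 against 1.61 in plate 1, and lower with Airn. Splits by Cd5, by Cd6 and by Nr4a1 or Egr1 had no 1 direction for Igfbp4. With Cd5 it had 1.75, 1.56 and 1.31 UMIs per cell, against 1.54, 1.202 and 1.51 without. Igf2r did not keep 1 direction with Ly6c1, Folr4 or Ccr7. With Myc, Igf2r had 0, 0 and 0.0417 UMIs per cell in plates 1, 2 and 3 (8, 16 and 24 cells), against 0.0948, 0.131 and 0.155 without.

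**Figure D5:**
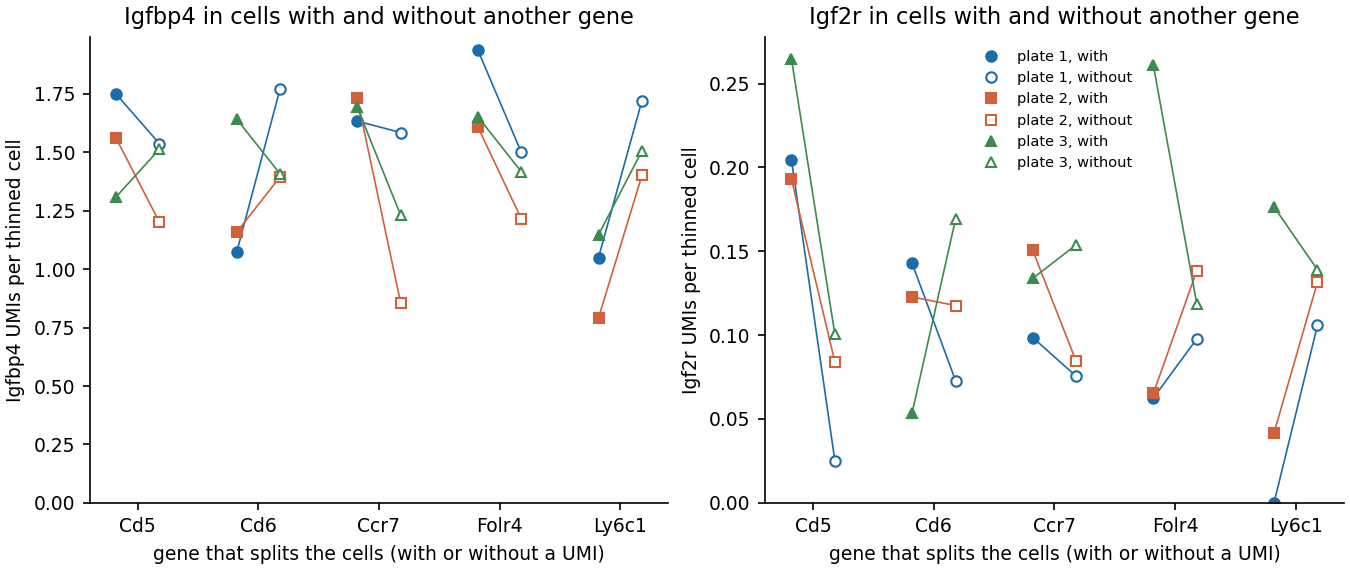
Igfbp4 (left) and Igf2r (right) UMIs per thinned cell in cells with (filled, left of each pair) and without (open) a UMI of Cd5, Cd6, Ccr7, Folr4 or Ly6c1, with 1 marker shape per plate. Igf2r is higher in cells with Cd5 in 3 of 3 plates (0.193 to 0.265 against 0.025 to 0.101), and Igfbp4 is lower in cells with Ly6c1 in 3 of 3. Both members were picked for being higher with more CD5, and the splits do not hold CD5 fixed.

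Of the genomic neighbours, 2 were abundant enough to test. Next to Igfbp4, Rara differed by -0.40 (SE 0.49, edgeR adjusted p = 0.977) and Ccr7 by -0.11 (SE 0.16, adjusted p = 0.977) between High and Low cells on the log2 scale, and by -0.77 (SE 0.57) and -0.15 (SE 0.19) without plate 2. Top2a, a cycling gene, gave 17 UMIs and Tns4 2. Around Igf2r, Slc22a2, Mrgprh and Pnldc1 gave 2 UMIs each. Airn overlaps Igf2r by 28354 bases on the other strand and gave 41 UMIs in 31 cells. Airn had 5.06, 17.4 and 16.9 CPM in High cells of plates 1, 2 and 3, against 9.67, 12.0 and 11.04 CPM in Low cells. The sources used here do not state whether counting used strand, so reads of Igf2r and Airn within the overlap may not be told apart. Counts are of 3′ ends. The 3′ end of Igf2r is at 12682406, outside the overlap, which begins at 12741311. Likewise the 3′ end of Airn, at 12860136, is outside Igf2r. How many reads fell within the overlap was not tested.

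Other genes of the IGF axis were scarce in these cells. Igf2, the ligand that both members bind, gave 2 UMIs in 2 cells, and Igf1, Ins1 and Ins2 were not analysed here. Of the other IGFBP genes, Igfbp5 gave 1 UMI and the rest were not analysed here. Pappa, the protease of IGFBP4, gave 4 UMIs and its inhibitor Stc1 gave 1. Receptors were present, with Igf1r at 139 UMIs in 64 cells and Insr at 59 UMIs in 41 cells. Igf1r had 35.9 ± 10.05 CPM in High cells and 64.1 ± 29.3 CPM in Low cells (SD, n = 3 plates; log2 -0.75, SE 0.49, edgeR adjusted p = 0.913), and the log2 difference was -0.69 (SE 0.66) without plate 2.

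Of 29 genes of insulin and IGF signalling, 17 were abundant enough to test between High and Low cells and 0 passed in either direction in edgeR, with 0 at an unadjusted p under 0.05. Of those, 8 had a positive log2 difference, with a median of -0.15, against 50.2% positive and a median of 0.00 over all tested genes, of which 6.17% had an unadjusted p under 0.05. Without plate 2, 17 were tested, 8 were positive with a median of -0.02, and 0 passed, with 3 at an unadjusted p under 0.05, against 6.395% of all genes. The smallest p belonged to the PI3-kinase subunits Pik3cd (285 ± 79.6 CPM in High and 384 ± 60.7 CPM in Low cells) and Pik3ca (63.1 ± 3.46 CPM in High and 103 ± 43.4 CPM in Low cells). Rheb, the activator of mTORC1, came next, with a log2 difference of 0.64 (SE 0.35), and 1.01 (SE 0.39) without plate 2.

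Among the partners of Igf2r in lysosomal transport, 0 passed between High and Low cells. Of all tested genes 0.187% passed and 6.17% had an unadjusted p under 0.05 (0.391% and 6.395% without plate 2). M6pr, the second mannose 6-phosphate receptor, gave 392 UMIs in 217 cells and had 122 ± 42.5 CPM in High and 123 ± 8.54 CPM in Low cells (log2 0.00, SE 0.29). Gnptg, a subunit of the enzyme that makes the mannose 6-phosphate tag, had a log2 difference of -0.02 (SE 0.61). Of 16 genes of the sorting machinery (GGA adaptors, AP-1 and retromer), 11 were tested, 6 were positive with a median of 0.33, and 0 passed, with 0 at an unadjusted p under 0.05. Ap1g1 (log2 0.87, SE 0.45), Vps26a (0.82, SE 0.48), Ap1b1 (0.67, SE 0.36) and Snx2 (-0.56, SE 0.36) had the smallest p. Without plate 2, 12 were tested, 7 were positive with a median of 0.32, and 0 passed, with 2 at an unadjusted p under 0.05. Of 30 lysosomal enzymes and cofactors, 18 were tested, 9 were positive with a median of 0.00, and 0 passed, with 2 at an unadjusted p under 0.05. Gusb, the lysosomal beta-glucuronidase, had 61.8 ± 21.4 CPM in High and 23.0 ± 9.50 CPM in Low cells (log2 1.43, SE 0.55, edgeR adjusted p = 0.773). Ctsb, a cathepsin, had 204 ± 25.6 CPM in High and 125 ± 37.4 CPM in Low cells (log2 0.67, SE 0.26, adjusted p = 0.773). Without plate 2, 10 of 18 lysosomal genes were positive with a median of 0.20 and 0 passed, with 2 at an unadjusted p under 0.05, and Gusb and Ctsb had log2 differences of 1.45 (SE 0.66) and 0.70 (SE 0.33).

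The remaining lists gave no call in the fit over 3 plates. Beside their counts stand those over all tested genes, of which 0.187% passed and 6.17% had an unadjusted p under 0.05. Without plate 2 these shares were 0.391% and 6.395%. Among other proteins that Igf2r binds, Dpp4 was the only one tested (log2 0.41, SE 0.51, and 0.97, SE 0.60, without plate 2). IGFBP4 is also known to bind Wnt receptors, and of 12 Wnt pathway genes 6 were tested, 3 were positive with a median of -0.03, and 0 passed, with 1 at an unadjusted p under 0.05. Apc, which marks beta-catenin for destruction, came closest, with 25.1 ± 4.19 CPM in High and 85.2 ± 2.85 CPM in Low cells (log2 -1.73, SE 0.44, edgeR adjusted p = 0.0998), and -1.77 (SE 0.56, adjusted p = 0.283) without plate 2. Without plate 2, 0 of 7 Wnt genes passed, with 2 at an unadjusted p under 0.05. Of 15 genes of the naive state and homing, 14 were tested, 9 were positive with a median of 0.06, and 0 passed, with 4 at an unadjusted p under 0.05. Bcl2 had 582 ± 135 CPM in High and 358 ± 72.1 CPM in Low cells (log2 0.72, SE 0.19, adjusted p = 0.147), and Dapl1 had 255 ± 4.03 CPM in High and 149 ± 67.5 CPM in Low cells (log2 0.76, SE 0.26, adjusted p = 0.603). Without plate 2, 1 of 14 passed, which was Bcl2 (log2 0.92, SE 0.20, edgeR adjusted p = 0.0109), and Dapl1 had 1.17 (SE 0.30, adjusted p = 0.0631). In the fits on member status, 0 genes of these lists passed, and the same signalling list had medians of -0.05 in Igfbp4-high and -0.16 in Igf2r-positive cells, against -0.03 and -0.07 over all genes.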

How the data were processed

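Cells were sorted by CD5 into 384-well plates and profiled by SORT-seq, a form of CEL-Seq2 with a 6-base UMI. Per the submitters' processing notes, BWA and the build mm10 were used, each with no version stated there. The authors deposited expected counts, that is, UMIs corrected for collisions among 4096 sequences, and 99.7% of the non-zero values lay within 0.01 of that correction of a whole number. As deposited, 8.56% of the non-zero values differed from a whole number by more than 1e-09. They were rounded to whole numbers per cell here. CD5 fluorescence was deposited as a signal per cell, in cytometer units, with its class. Spike-ins (19.6% of counts) entered no fit.

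Members, lists, tests and the displacement in plate 2 were chosen with earlier results of these data known. Counts were summed per plate and class (9 sums) or CD5 bin (12 sums) and fitted with edgeR 4.0.16 (TMM, filterByExpr) in R 4.3.3, with plate as a block. For member status, 557 cells were thinned to 2118 UMIs, summed per plate, class and status, and scaled by plain totals, with genes of at least 30 counts kept and plate by class as a block. The 18 sums for Igfbp4 status and 16 sums for Igf2r status come from 3 plates, so these p-values may be too small. Spread was estimated mostly from all genes together. The class fit had a median prior of 37.8 degrees of freedom against 4 residual ones. In the status fits the prior was infinite, against 8 residual ones for Igfbp4 status and 7 for Igf2r status. A p-value there rests little on a gene's own spread between sums. Low cells of plate 1 were left out of the Igf2r status fit, since 0 of 39 were Igf2r-positive after thinning. TMM there was set aside after its result was seen and is an alternative. P-values are two-sided, Benjamini-Hochberg adjusted over all genes tested, with a threshold of 0.05. An SE is the log2 difference over the root of the F statistic. Code was run on simulated counts with changes placed in abundant genes only. That run is no check for a gene as scarce as Igf2r in the status fits.

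Named genes are both members, in each status fit up to 12 per direction that pass with 1 sign in 3 plates, or else up to 5 of smallest p with 1 sign, the 5 most alike by each measure, up to 4 of smallest p per list, and the 2 nearest genes in the table on each side. Some genes that this rule names are not reported here. The genes used to split cells were picked with earlier results known. Likeness used genes with a mean of at least 0.1 thinned UMIs, or 50 counts per sum. Intervals for shares are exact at 95%. Alternatives were DESeq2 1.42.0, scaling, filter, block, depth, seed, bins, single cells and each plate left out, of which the fits of lists and neighbours without plate 2 were added after seeing the data. Figures used matplotlib 3.10.9. Gene positions are from GENCODE M21, matched by symbol for 13450 of 14355 genes.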

Additional observations from a re-analysis of the deposited data

How the results depend on the processing

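The High minus Low differences and the CD5 slopes of both genes kept their sign in all their alternatives. These included DESeq2, other scaling, no filter, no replicate block, thinning and single cells left out. Each value moved by less than the SD between single plates, which is a wide measure. For Igfbp4 and Igf2r that SD was 0.42 and 1.28 for the classes, and 0.14 and 0.66 for the slopes. The members were picked on CD5 and the alternatives reuse the same cells, so this is no sign of stability. Igfbp4 ranged from 0.32 to 0.86 (log2) between the classes and Igf2r from 1.16 to 2.21, while their slopes ranged from 0.07 to 0.28 and from 0.31 to 0.82. Without the replicate block the class values were 0.61 for Igfbp4 and 1.55 for Igf2r. Leaving out 1 plate gave 0.32 to 0.75 and 1.16 to 2.21 for the classes, and 0.07 to 0.23 and 0.31 to 0.82 for the slopes. Igf2r did not pass the count filter in the thinned class sums, so that alternative gave no value for it.

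The difference of Igfbp4 by Igf2r status lay near 0 and changed sign with plate as the only block (0.040), with no replicate block (0.034), and without the cell of highest Igfbp4 in each plate (0.0017), and it ranged from -0.51 to 0.19 with 1 plate left out. The difference of Igf2r by Igfbp4 status turned to 0.18 at the median depth and 0.15 with another random draw, and ranged from -0.85 to 0.13 with 1 plate left out. TMM scaling, added after seeing the data, gave -0.69 for Igfbp4 and 122 genes called by Igf2r status, all lower, from 876 at an unadjusted p under 0.05. By Igf2r status, 1 gene was called without thinning and 1 with another draw, and 0 without any 1 plate (0 to 0). By Igfbp4 status the count was 9 with TMM, 0 with the DESeq2 Wald test, 4 with no filter, 8 with plate as the only block, 0 with no replicate block, 17 without thinning, 7 at the median depth, 9 with another draw, and 0 to 1 with 1 plate left out. The cause of these changes was not tested.

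Thinning lowered detection to 59.6% of cells for Igfbp4 and 9.52% for Igf2r, by its construction. Igf2r gave 210 UMIs over 697 cells, and most cells are at 0.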
